A study of Homo sapiens with 4 samples.

Results

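Epithelial cells are held together by adherens junctions, desmosomes and tight junctions, and are anchored to the matrix by integrins. In epithelial-mesenchymal transition (EMT), transcription factors of the SNAI, ZEB and TWIST families repress junction genes such as CDH1, while N-cadherin, vimentin and fibronectin come up and secreted proteases open the matrix. In the prostate, luminal cancer cells usually keep E-cadherin, and its loss is a mark of invasive disease. The genes described here are 37 cadherin, catenin, desmosome, tight junction, integrin, matrix, protease and EMT regulator genes, chosen by name. Probe sets were taken when the platform annotation named 1 of these genes and no other. This gave 75 probe sets for 35 of the genes, out of 22215 probe sets and 11963 genes in all. CTNND1 (p120 catenin) had 3 probe sets that each list several genes, and F11R was matched by no probe set, so neither is described.

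The cells were LNCaP, an established human prostate cancer line that responds to androgen, cultured in RPMI-1640 with 10% FBS. They were transiently transfected using Lipofectamine with a vector expressing MED1 or with the same vector left empty. MED1 is a component of Mediator, the coactivator complex between DNA-bound factors and RNA polymerase II. RNA was isolated at 24 hours and 200 ng per sample was hybridised to 1 Affymetrix array, with 2 samples per group. Transient transfection leaves an unknown share of cells without the vector, and the arrays average over all of them. The title, source name and transfection label of the controls say empty vector, and only their free-text description names the MED1 vector.

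The values are MAS5 signals on a linear scale, where a probe set stands for 1 stretch of a transcript. The median signal per array was 77.0 to 82.7, the 3' to 5' ratio of the actin controls was 8.14 to 9.45, and that of the GAPDH controls was 1.16 to 1.27. The 5' actin control thus read far below the 3' one on every array, and its bearing on other probe sets was not tested. The transfected gene was checked first. The MED1 probe set of lower signal read 559 and 807 in the MED1 samples against 292 and 315 in the empty vector samples (log2 fold change 1.11 ± 0.16 SE, limma, Benjamini-Hochberg adjusted p = 0.0344), while the brighter read 1172 and 1074 against 1097 and 1011 and did not pass (adjusted p = 0.830). All 7 luminal prostate markers with a probe set of their own were above the filter described next, with a summed signal of 21992 to 23341 in the MED1 samples and 22846 to 25074 in the controls. Of other cell types, 1 of 3 basal, 2 of 8 fibroblast and 1 of 6 leukocyte and endothelial markers were above it, and no marker passed the test (limma). The summed fibroblast signal was 174 to 281 in the MED1 samples and 187 to 220 in the controls, and its part in the values below was not tested.

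No junction, adhesion or invasion gene passed the test of a difference between the groups. Of the 75 probe sets, 37, from 25 genes, had a mean signal of at least 32.2, the 40th percentile of all probe sets, and were tested. The other 38 lay under it, and for 10 genes no probe set was tested. At an adjusted p of 0.05, 0 of the 37 passed (limma on log2(signal + 16), Benjamini-Hochberg over all 13329 tested probe sets, lowest adjusted p = 0.268). Among all tested probe sets the number was 41, or 0.308%. At an unadjusted p of 0.05, 5 of the 37 passed, or 13.5%, where the share of all tested probe sets was 9.19%. These 5 were 1 probe set each of OCLN, TJP1 and SNAI2 and 2 of FN1. Their log2 fold changes are on the scale with 16 added, which understates differences of dim probe sets.

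The largest single difference by p was that of SNAI2, which encodes Slug, a zinc finger repressor of E-cadherin and a driver of EMT. It read 185 and 213 in the MED1 samples against 288 and 305 in the empty vector samples, so both MED1 arrays lay below both controls. The log2 fold change was -0.54 ± 0.14 (SE), with a 95% interval from -0.85 to -0.22 and an unadjusted p of 0.00371, but it did not pass after adjustment (limma, Benjamini-Hochberg adjusted p = 0.268). With an array left out, the value kept its sign, at -0.44 to -0.63, with adjusted p of 0.105 to 0.651. In these bulk samples, fewer cells with a transcript and less of it per cell cannot be told apart.

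**Figure D1:**
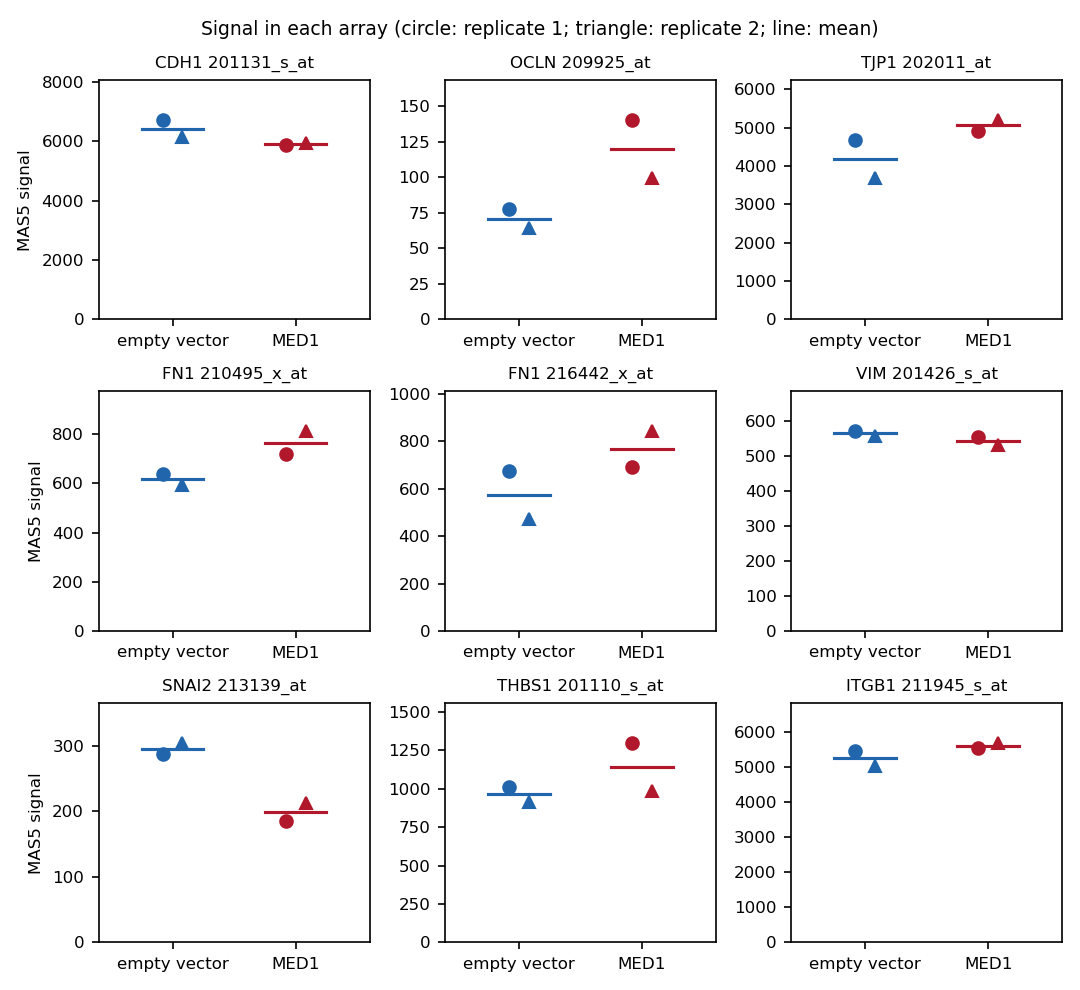
MAS5 signal (y axis, linear, from 0) of 9 member probe sets in the 2 empty vector arrays (blue) and the 2 MED1 arrays (red); circles are replicate 1, triangles replicate 2 and lines the group means. SNAI2 read 185 and 213 under MED1 against 288 and 305, OCLN 141 and 99.6 against 77.6 and 64.3, and the CDH1 and VIM arrays lie close together.

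Adherens junction genes differed little. CDH1, E-cadherin, whose outer domain binds its like on the next cell, read 5868 and 5926 in the MED1 samples against 6720 and 6139 in the controls on its brighter probe set. The groups did not overlap, but the log2 fold change was -0.12 ± 0.10 with an interval of -0.34 to 0.10 (limma, adjusted p = 0.736). The dimmer CDH1 probe set gave 47.0 and 40.3 against 41.8 and 39.5, near the filter level. CTNNB1, beta-catenin, which ties cadherins to alpha-catenin and also acts in Wnt signalling, read 6570 and 6133 against 6353 and 5558, and its groups overlapped.

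CTNNA1, alpha-catenin, which connects the cadherin complex to actin, had 3 tested probe sets. They gave log2 fold changes of 0.05, 0.06 and 0.16, each with an SE of 0.09 to 0.10. The probe set with 0.16 read 3057 and 3171 against 2875 and 2689 and, like the one with 0.06, had both MED1 arrays above both controls. Both of these are of the kind marked as able to match other transcripts. The remaining CTNNA1 probe set stayed under the filter, at 26.0 and 26.1 against 22.5 and 25.7.

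Among desmosome genes, DSG2, a desmosomal cadherin, had the largest value. It read 2563 and 2863 in the MED1 samples against 2520 and 2172 in the controls, without overlap, and its log2 fold change of 0.21 ± 0.11 had an interval of -0.03 to 0.45 (limma, adjusted p = 0.593). DSP, desmoplakin, which links desmosomes to keratin filaments, had its controls on either side of the MED1 samples. The MED1 samples read 2580 and 2596, and the empty vector samples 2840 and 1921. With all arrays the DSP log2 fold change was 0.15 ± 0.16. It was -0.13 without empty vector replicate 2 and 0.43 without empty vector replicate 1. JUP, plakoglobin, shared by desmosomes and adherens junctions, read 963 and 1013 against 996 and 895. The desmosomal cadherin DSC2 read 307 and 285 against 384 and 283 on 1 probe set and 130 and 140 against 126 and 152 on the other. The groups overlapped for all of these but DSG2.

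Of the tight junction genes, OCLN, which encodes the membrane protein occludin, had the highest log2 fold change of any member. It read 141 and 99.6 in the MED1 samples against 77.6 and 64.3 in the empty vector samples, a log2 fold change of 0.63 ± 0.22, or 1.55-fold, with a wide interval of 0.14 to 1.12. It was 0.42 without MED1 replicate 1 and 0.85 without MED1 replicate 2. Its unadjusted p was 0.0169 and it did not pass (limma, Benjamini-Hochberg adjusted p = 0.435). SNAI2, ZEB1 and TWIST1 proteins bind the E-box, and SNAI factors are known to repress occludin, so the sequence before each of the OCLN starts in RefSeq is shown, with matches to the E-box CACCTG or its reverse complement CAGGTG in capitals. Both windows are on the plus strand of GRCh38.p14, 5′ to 3′, cover the 250 bases before a start and share their last and first few bases. The first is chr5:69492297-69492546, with the match beginning 33 bases before the start, and the second chr5:69492540-69492789, with it 133 bases before the start.
OCLN first start: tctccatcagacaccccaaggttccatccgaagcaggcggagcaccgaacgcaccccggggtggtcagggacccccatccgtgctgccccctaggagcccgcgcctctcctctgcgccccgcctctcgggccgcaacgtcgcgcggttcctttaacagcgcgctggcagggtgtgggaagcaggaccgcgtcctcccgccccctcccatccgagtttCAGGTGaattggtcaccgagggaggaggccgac
OCLN second start: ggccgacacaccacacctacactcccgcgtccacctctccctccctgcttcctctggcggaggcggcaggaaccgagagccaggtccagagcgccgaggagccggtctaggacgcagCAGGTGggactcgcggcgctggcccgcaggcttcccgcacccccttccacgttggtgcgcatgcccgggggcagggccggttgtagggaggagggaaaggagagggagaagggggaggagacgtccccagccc
An E-box of these letters stood in 17.5% of all 35116 such windows of RefSeq genes. Among the members, 26 genes had 47 windows and 12 windows held it, 25.5%. Among the epithelial members it was 8 of 22 windows, or 36.4%, and among the mesenchymal members 3 of 18, or 16.7%. By gene, it was 7 of 12 epithelial and 2 of 10 mesenchymal members. Several members, among them CDH1, EPCAM and SNAI2, had no window and are not in these shares. The windows of a gene can overlap, and a match says only that the letters are present. Whether SNAI2 bears on OCLN in these cells was not tested. CDH1, which factors of this family also repress, had log2 fold changes of -0.12 and 0.07 on its 2 probe sets.

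TJP1, the scaffold protein ZO-1 under tight junctions, gave 4918 and 5206 against 4681 and 3683 on its brighter probe set. The MED1 arrays lay above both controls, and the log2 fold change was 0.28 ± 0.12 (interval 0.01 to 0.56, unadjusted p = 0.0452, limma adjusted p = 0.526). A second TJP1 probe set read 660 and 662 against 657 and 596, with a log2 fold change of 0.08 ± 0.11. In both, empty vector replicate 2 was the lowest of the 4 arrays and empty vector replicate 1 lay nearer to the MED1 samples than to it. Without that lowest array the log2 fold changes were 0.11 and 0.0073.

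Claudins, the strand-forming proteins of tight junctions, showed no shared direction. CLDN3 read 309 and 498 in the MED1 samples against 305 and 318 in the controls on its brighter probe set, so MED1 replicate 2 alone stood apart, and without that array its log2 fold change went from 0.32 to -0.01. The dimmer CLDN3 probe set read 171 and 215 against 175 and 171, with overlap (log2 fold change 0.14 ± 0.16). CLDN4 read 1078 and 854 against 1039 and 1085, and CLDN7 read 3464 and 3220 against 2914 and 3590, both with overlapping groups. CLDN1 was under the filter at 1.84 and 1.09 against 5.99 and 8.05. EPCAM, an epithelial adhesion molecule of carcinoma cells, read 4653 and 4105 against 4205 and 3875, with a log2 fold change of 0.11 ± 0.10.

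**Figure D2:**
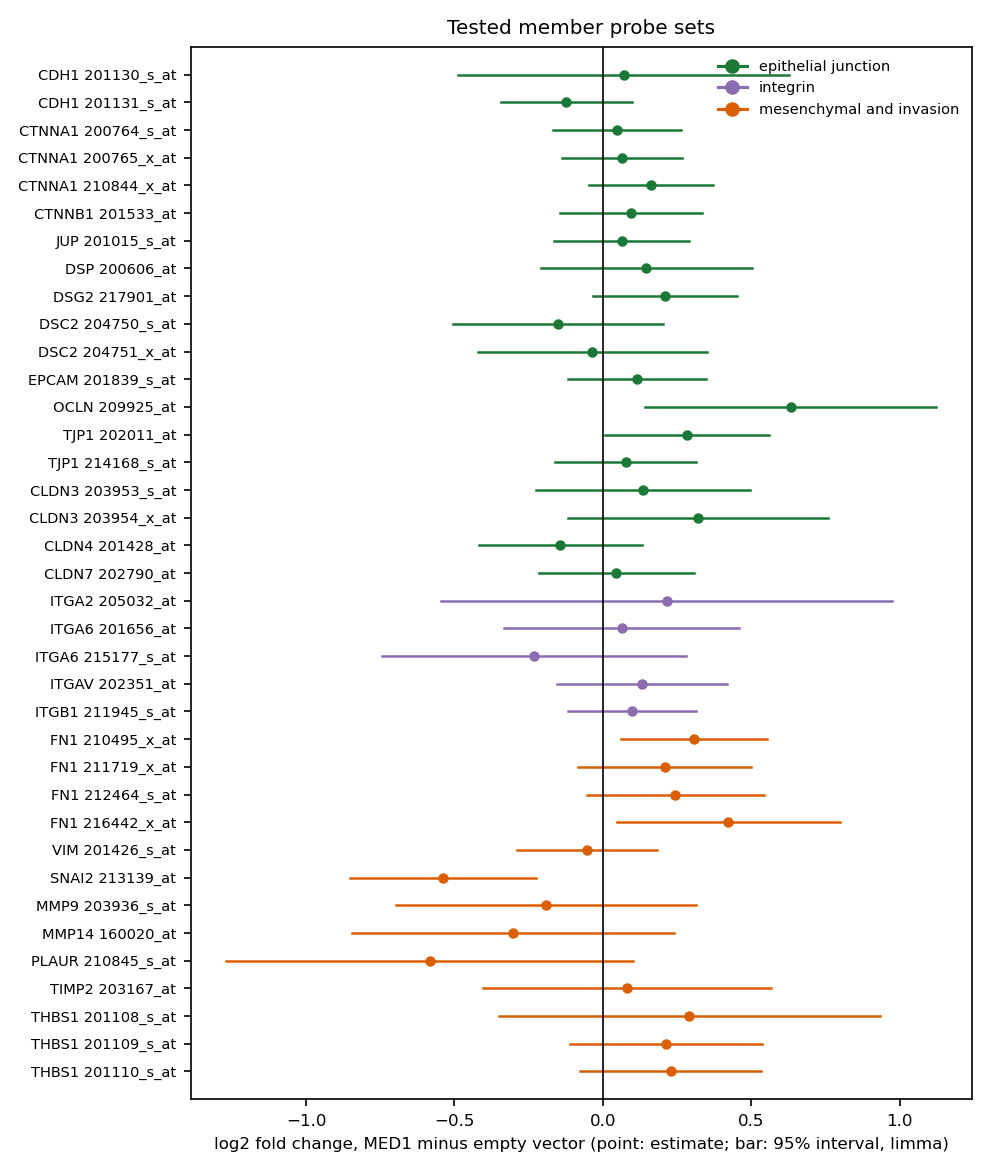
Log2 fold change of MED1 minus empty vector (x axis) for each of the 37 tested member probe sets (rows), with points for the estimate and bars for the 95% interval from limma; green marks epithelial junction genes, purple integrins and orange mesenchymal and invasion genes. Most bars cross 0, and those of OCLN, SNAI2, 1 TJP1 and 2 FN1 probe sets do not, before any adjustment for the number of tests.

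Integrins pair an alpha with a beta chain to bind matrix proteins. ITGB1, the beta chain that most of the alpha chains here pair with, read 5526 and 5677 in the MED1 samples against 5446 and 5029 in the controls, a log2 fold change of 0.10 ± 0.10 (limma, adjusted p = 0.798). Its other 4 probe sets were under the filter, with no signal above 18.7. ITGAV, a chain of vitronectin receptors, read 1383 and 1625 against 1521 and 1228. ITGA6, a laminin receptor chain, gave 256 and 197 against 241 and 190 on 1 probe set, and 58.0 and 79.3 against 73.3 and 93.0 on the other, with log2 fold changes of 0.06 and -0.23. ITGA2, a collagen receptor chain, read 59.6 and 60.6 against 29.1 and 79.2, so its controls lay on either side of the MED1 samples. ITGA3 and all 4 probe sets of ITGB4, the hemidesmosome chain that pairs with ITGA6, lay under the filter.

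Among the mesenchymal genes, all 4 tested probe sets of FN1 had positive values. FN1 encodes fibronectin, a matrix glycoprotein that integrins bind. Its tested probe sets read 720 and 811 against 638 and 592, 833 and 716 against 602 and 739, 611 and 538 against 536 and 433, and 690 and 842 against 674 and 472. Both MED1 arrays were above both controls in 3 of these 4, as they were in 17.2% of all tested probe sets. The log2 fold changes were 0.31 ± 0.11, 0.21 ± 0.13, 0.24 ± 0.13 and 0.42 ± 0.17, with unadjusted p of 0.0202, 0.141, 0.0970 and 0.0316 and adjusted p of 0.449 to 0.647 (limma, Benjamini-Hochberg), so none passed. These probe sets read the same RNA on the same arrays and are not replicates of each other, and 3 of them are of the kind marked as able to match other transcripts. All 4 stayed positive with any array left out, at 0.10 to 0.35 without empty vector replicate 2. The other 2 FN1 probe sets were under the filter.

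The 250 bases before the FN1 start are shown because FN1 is the member with the most tested probe sets of 1 direction, and its promoter is known for a cyclic AMP response element (CRE). The window is chr2:215436069-215436318 of GRCh38.p14, from RefSeq, on the minus strand and written 5′ to 3′. The CRE letters TGACGTCA, which read the same on both strands, are in capitals and begin 183 bases before the start.
FN1: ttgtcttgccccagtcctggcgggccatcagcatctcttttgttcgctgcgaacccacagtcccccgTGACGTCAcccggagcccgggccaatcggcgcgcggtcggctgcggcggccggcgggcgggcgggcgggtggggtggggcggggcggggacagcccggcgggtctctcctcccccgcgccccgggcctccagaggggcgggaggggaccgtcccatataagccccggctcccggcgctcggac
This element stood in 1.65% of all such windows. Among the members it stood in 3 of 47 windows, or 6.38%. Of these windows, 2 were among the 22 epithelial and 1 among the 18 mesenchymal ones. The FN1 window held no CACCTG or CAGGTG.

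VIM, vimentin, the intermediate filament of mesenchymal cells, read 555 and 533 in the MED1 samples against 571 and 559 in the controls. The groups did not overlap, but the log2 fold change was -0.05 ± 0.10 with an interval from -0.29 to 0.18 (limma, adjusted p = 0.914). The regulators ZEB1 and TWIST1 and N-cadherin, CDH2, had no tested probe set. The 3 ZEB1 probe sets read at most 27.0 on any array, and the brightest of them gave 15.4 and 17.2 against 21.3 and 27.0. TWIST1 read 15.3 and 12.5 against 2.24 and 11.9, and the brighter CDH2 probe set 13.8 and 5.70 against 4.67 and 6.09. With no detection calls, signals this low have no known background and give no fold.

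THBS1, thrombospondin, a matrix glycoprotein, had 3 tested probe sets with log2 fold changes of 0.21, 0.23 and 0.29 and SEs of 0.14 to 0.28. The brightest read 1298 and 983 against 1012 and 913, with overlap, and the next 232 and 231 against 213 and 183, without. None passed, with adjusted p of 0.626 to 0.798 (limma). CD44, the hyaluronan receptor, had 8 probe sets, all under the filter, with a median signal of 3.78 and a highest of 24.6. Groups overlapped in 5 of these 8, and in the other 3 both MED1 arrays were the lower. Over all 8886 probe sets under the filter, both MED1 arrays were below both controls in 20.4% and above them in 13.3%.

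Of the proteases, their receptor and their inhibitors, PLAUR and MMP14 lay close to the filter on their tested probe sets, MMP9 and TIMP2 above it, and MMP2, TIMP1 and PLAU under it. PLAUR, the urokinase receptor, read 33.3 and 21.8 in the MED1 samples against 36.7 and 63.5 in the controls. Its log2 fold change of -0.58 ± 0.30 had an interval from -1.27 to 0.10 (limma, adjusted p = 0.598), and its other 2 probe sets were under the filter. MMP14, a membrane-bound protease that activates MMP2, read 37.2 and 38.9 against 51.3 and 50.2 on its 1 tested probe set (log2 fold change -0.30 ± 0.24). On 2 of its 3 dimmer probe sets the MED1 arrays were instead the higher. MMP9, a gelatinase, read 85.9 and 66.9 against 75.8 and 104, and TIMP2, an inhibitor of metalloproteases, 87.5 and 128 against 108 and 91.8, both with overlap.

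MMP2, the other gelatinase, missed the filter narrowly, at 41.1 and 35.9 in the MED1 samples against 20.9 and 27.6 in the controls. TIMP1, another inhibitor, read 19.5 and 20.3 against 26.1 and 23.1. PLAU, urokinase itself, read 31.5 and 15.2 against 6.79 and 29.6 on its brighter probe set. Among the 38 member probe sets under the filter, both MED1 arrays were above both controls in 9 and below in 10. Over all 8886 these shares were 13.3% and 20.4%.

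**Figure D3:**
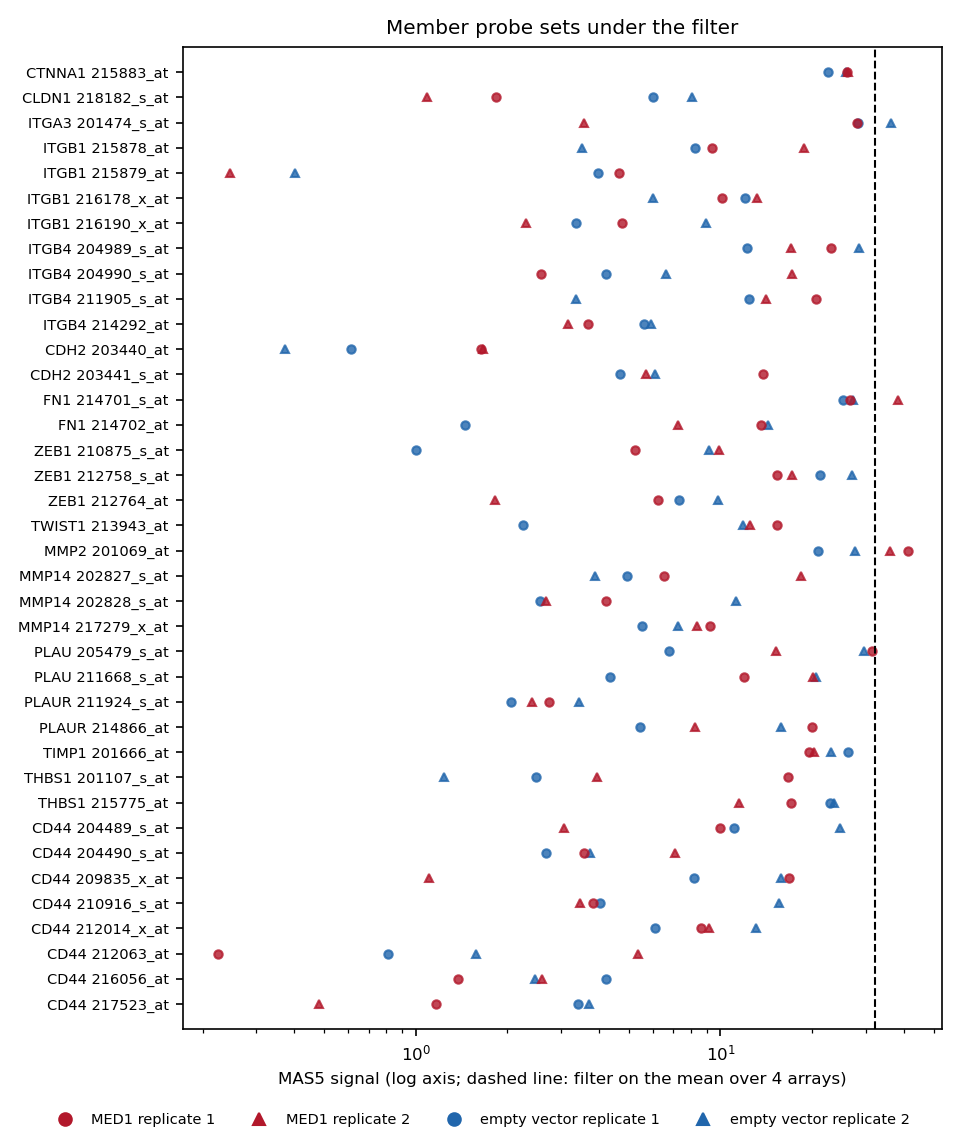
MAS5 signal (x axis, log scale) of the 38 member probe sets under the filter (rows) in each of the 4 arrays, red for MED1 and blue for empty vector, circles for replicate 1 and triangles for replicate 2; the dashed line is the filter of 32.2 on the mean. All CD44, CDH2, ZEB1, TWIST1 and ITGB4 probe sets are here, and replicates of 1 group often differ as much as the groups do.

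Epithelial and mesenchymal genes were then set side by side. The 19 tested probe sets of 13 epithelial junction genes had log2 fold changes with a median of 0.08, and 15 were positive. The 13 tested probe sets of 8 mesenchymal and invasion genes had a median of 0.21, with 8 positive, and the 5 integrin probe sets a median of 0.10. The mesenchymal and invasion side includes TIMP2 (0.08), though it encodes an inhibitor of metalloproteases. All tested probe sets together had a median of -0.02, with 46.5% positive. Over the 37 tested member probe sets, both MED1 arrays were above both controls in 11, or 29.7%, where the share was 17.2% of all tested probe sets. They were below in 5, or 13.5%, against 22.6% of all. PLAUR, among these 5, passed the filter only through its controls. The 37 values include several probe sets of 8 genes and were not tested as a set.

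The contrast of the groups had no steady direction. The epithelial median lay below the mesenchymal one by a difference of -0.13 on the log2 scale. FN1 and THBS1 supply 7 of the 13 mesenchymal probe sets, and with each gene represented by its brightest probe set the mesenchymal median was -0.12, with 3 of 8 genes positive. The epithelial median was then 0.10, with 10 of 13 positive, and the difference 0.22. PLAUR, the lowest of the 8 mesenchymal values, passed the filter only through its controls, so its place in this median follows from the group that was high. Leaving out empty vector replicate 2 also turned the difference, to 0.04, with medians of 0.06 and 0.01. Without MED1 replicate 1, MED1 replicate 2 or empty vector replicate 1 it was -0.02, -0.02 and -0.03.

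Empty vector replicate 2 was the lowest of the 4 arrays in 22 of the 37 tested member probe sets, or 59.5%. Over all tested probe sets it was the lowest in 26.5%. For the 19 epithelial probe sets the count was 13, with CTNNB1, JUP, DSP, EPCAM and both TJP1 probe sets among them. For the mesenchymal probe sets it was 6 of 13. Where it was the lowest array, leaving it out lowers the value by construction, so this is a description and no test of its part in the differences. Without it the sign turned for 9 of the 37 values, among them DSP (-0.13), ITGA6 (-0.10 on the brighter probe set) and ITGAV (-0.02).

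**Figure D4:**
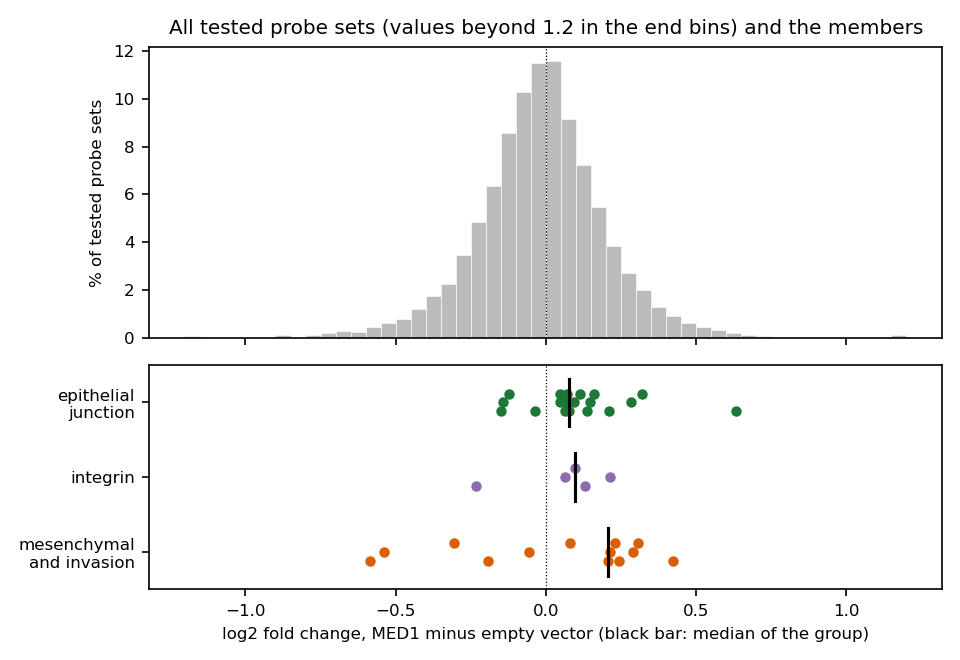
Upper panel: share of all 13329 tested probe sets (y axis, percent) by log2 fold change of MED1 minus empty vector (x axis). Lower panel: each tested member probe set by group on the same axis, with a black bar at the group's median, which is 0.08 for epithelial junction, 0.10 for integrin and 0.21 for mesenchymal and invasion genes; the mesenchymal values split into SNAI2, PLAUR, MMP14 and MMP9 on the left and FN1 and THBS1 on the right, with VIM and TIMP2 near 0.

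The intervals were narrower for bright genes. They are not adjusted for the number of probe sets and rest on duplicates whose spread may be technical. They hold for the average over cells with and without the vector. For the 12 tested member probe sets with a signal of at least 1000 on every array, the 95% intervals ran from -0.34 to 0.56 on the log2 scale. Over all 37, 35 intervals lay within 1 of 0, and the widest bounds were -1.27 for PLAUR and 1.12 for OCLN.

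Other genes of the same pathways gave a similar picture. From lists of 93 further junction, integrin, EMT and protease genes, 82 had a probe set of their own and 48 genes, with 71 probe sets, were tested. None passed (limma, 0 of 71 over all tested probe sets), and 7 had an unadjusted p under 0.05, or 9.86% against 9.19% of all. CLDN8, a claudin of tight junctions, came closest, with 429 and 460 in the MED1 samples against 735 and 641 in the controls. Its log2 fold change was -0.61 ± 0.11 (unadjusted p = 0.000476, adjusted p = 0.101), and it passed without MED1 replicate 2 (adjusted p = 0.0152), while with another array left out its adjusted p was 0.0918 to 0.185. SERPINE2, a secreted inhibitor of serine proteases such as urokinase and thrombin, read 514 and 560 against 377 and 373, a log2 fold change of 0.50 ± 0.11 (adjusted p = 0.204).

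Of 6 tested probe sets of EMT regulators and their opponents, 4 had both MED1 arrays below both controls, as had 22.6% of all tested probe sets. These 4 were of OVOL2, ESRP1, GRHL2 and ST14. SNAI2, an EMT driver tested among the members, also had both MED1 arrays below both controls. OVOL2, a zinc finger factor that keeps epithelial identity, read 523 and 511 against 624 and 790 (log2 fold change -0.43 ± 0.13, limma adjusted p = 0.340). ESRP1 gave -0.38 ± 0.11 (limma adjusted p = 0.328), GRHL2 -0.11 and ST14 -0.15. A second ST14 probe set gave 0.23 and TGFBR2 -0.04, both with overlap. The drivers SNAI1 and ZEB2 were under the filter, so they could not be among the 4. CDH3, P-cadherin, read 114 and 85.6 against 73.6 and 48.4 (0.60 ± 0.24, adjusted p = 0.486). ITGB5 had 1 probe set at 0.86 ± 0.30 (adjusted p = 0.446), where empty vector replicate 2 read 35.4 and the other arrays 86.2 to 116, and its 3 other probe sets gave 0.03, -0.005 and -0.01. The focal adhesion protein ZYX gave 0.43 and -0.20 by its 2 probe sets. MMP16, a membrane-bound metalloprotease, gave -0.42 by both of its tested ones, at signals of 23.4 to 56.0. Both of these passed the filter only through the controls, and the ZYX probe set with 0.43 only through the MED1 samples.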

How the data were processed

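Per the submitters' processing notes, the authors made MAS5 signal intensities, 1 per probe set and array on a linear scale, with no version given. Further upstream steps: not given in the sources used here. With the lowest and highest 2% removed, each array had a mean of 500.2, and the values were used as scaled. Of 22215 probe sets (62 Affymetrix controls left out), 19064 named 1 gene, 1043 several and 2108 none. The Entrez identifiers of all 75 member probe sets gave the same symbol in RefSeq.

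Signals were transformed to log2(value + 16). Probe sets whose mean lay under the 40th percentile were left out, and the remaining 13329 entered a linear model (limma 3.58.1, R 4.3.3; lmFit and trended eBayes) under Benjamini-Hochberg adjustment over all of them and a threshold of 0.05. The variance prior carried 7.12 degrees of freedom and each probe set 2 of its own. SE and 95% intervals are those of limma, and tests are two-sided. The labels do not say whether duplicates were separate cultures, so the spread behind the p-values may be technical. With 2 arrays per group, an exact permutation test cannot reach the threshold. Arrays have no read depth, so their number limits the precision.

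The members, the wider lists and the tests were chosen with earlier results of these data known. All member probe sets are described. Of the wider lists, up to 8 probe sets are named: those that passed, then those of largest absolute change among tested ones whose groups did not overlap. SNAI1, ZEB2, ESRP1, GRHL2, ST14 and TGFBR2 fall outside that rule and were named after their values were seen. Gene symbols and promoter sequences are from the platform annotation and RefSeq (GRCh38.p14). No sequence is shown for the other members. Plots were drawn with matplotlib 3.10.9.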

Additional observations from a re-analysis of the deposited data

How the results depend on the processing

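No member probe set passed under any of the alternatives run: pseudocounts of 1 and 64, centring on the median, quantile normalization, no filter, a 60th-percentile filter, eBayes without trend or robust, the replicate block, each array left out, 1 probe set per gene, and a filter on the mean log2 value, which was chosen after seeing the data. The lowest member adjusted p was 0.0683 (CLDN3 without MED1 replicate 1), and 0.0770 for SNAI2 with the replicate block, where the other alternatives gave SNAI2 0.105 to 0.651. The setting of 1 probe set per gene took a subset of the main fit, so its lack of passing members was fixed in advance. The block raised the count over all probe sets from 41 to 230 and left the medians at 0.08 and 0.21. It also raised the members with an unadjusted p under 0.05 (limma) from 5 to 10 of the 37. The matching share over all tested probe sets is not given here. The deviations of same-numbered arrays from their group means correlated at 0.12 over the tested probe sets. There were only 2 pairs, too few to treat as pairing. CLDN8 and SERPINE2 passed with the block (limma, adjusted p = 0.0173 and 0.0468). The count over all probe sets was 0 with no filter, 7 without the trend, 39 with the filter on the mean log2 value, and 25 to 215 with an array left out, where the lone array takes its spread from the remaining pair. The epithelial minus mesenchymal difference was -0.117 and -0.090 with pseudocounts of 1 and 64, -0.121 with quantile normalization, -0.060 with no filter, 0.218 with 1 probe set per gene, and -0.034 to 0.042 with an array left out. The mesenchymal median was 0.131 with no filter, -0.123 with 1 probe set per gene and 0.013 to 0.180 with an array left out; the epithelial median was 0.056 to 0.146. The sign changed in 22 of 508 member values under the alternatives, over 16 of the 37 probe sets, none of them called. With an array left out these ran from -0.0099 to 0.15 for CDH1 (dimmer probe set), -0.0020 to 0.095 for CTNNA1 (dimmest tested), -0.0012 to 0.19 for CTNNB1, -0.012 to 0.14 for JUP, -0.13 to 0.43 for DSP, -0.36 to 0.059 and -0.16 to 0.086 for DSC2, -0.014 to 0.29 and -0.0092 to 0.65 for CLDN3, -0.31 to 0.022 for CLDN4, -0.10 to 0.20 for CLDN7, -0.32 to 0.75 for ITGA2, -0.11 to 0.24 for ITGA6 (brighter), -0.021 to 0.28 for ITGAV, -0.39 to 0.0017 for MMP9 and -0.16 to 0.32 for TIMP2. The cause was not tested. DSC2's dimmer probe set turned to 0.017 with centring and 0.0013 with quantile normalization.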
